A study of Mus musculus with 24 samples.

Results

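Lgr5-Tspan8hi cells are basal cells of the mouse mammary gland that were sorted as negative for Lgr5 (the R-spondin receptor of Wnt-responsive stem cells) and high for Tspan8 (a membrane protein of the tetraspanin family). Their chromatin was precipitated with an antibody against H3K4me3 (trimethylated lysine 4 of histone H3) or against H3K27me3 (trimethylated lysine 27), with 2 libraries for each mark. These 4 libraries are 4 of the 16 immunoprecipitated libraries of the series. The other 12 came from Lgr5+Tspan8hi, Lgr5+Tspan8- and Lgr5-Tspan8- basal cells, with 2 libraries for each mark and subpopulation. All groups came from untreated C57BL/6 females. The labels give no age, and they do not say whether animals were pooled or whether replicates came from separate animals, so spreads and p-values measure only the variation between these libraries, which may be technical. The 8 input samples were not analysed here, and all values are without subtraction of input. The question was which genes of Lgr5-Tspan8hi cells carry the active mark alone, the repressive mark alone, or both.

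H3K4me3 is placed by trithorax-type methyltransferases at promoters that are transcribed or ready to be, and most CpG-rich promoters carry it. H3K27me3 is placed by Polycomb repressive complex 2, often over whole genes, and goes with silence of genes for other lineages. Promoters that carry both are called bivalent and are best known from embryonic stem cells, where they belong to regulators of development. In female cells the inactive X chromosome is a further known site of H3K27me3. Basal cells form the outer layer of the mammary epithelium and include the contractile myoepithelial cells.

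Each value below is a read count per gene, scaled to the library total (CPM). H3K4me3 was read as CPM per gene. H3K27me3 counts rose with the genomic span of a gene (Spearman's rho 0.73 across genes, which are not independent replicates), so H3K27me3 was read as CPM per kb of span. A gene counted as marked by H3K4me3 at 20 CPM or more in both libraries and as unmarked under 5 CPM in both. For H3K27me3 the limits were 2 CPM per kb or more with at least 10 reads in both libraries, and under 1 CPM per kb in both. Genes between the limits for either mark were left in between. Of the 27080 genes counted, 22153 had a known span of 1 kb or more and were classed.

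The H3K4me3 libraries held 2241266 and 2556928 counts and the H3K27me3 libraries 2639862 and 6300093, so that 20 CPM stood for 44.8 and 51.1 reads and 2 CPM per kb over a gene of 10 kb for 52.8 and 126 reads. A count of 0 allows up to 3 counts, which is 1.34 and 1.17 CPM of H3K4me3 in replicates 1 and 2 (counting error only). Replicate 1 stood apart for both marks. Its H3K4me3 library had no read at 5844 genes, against 662 to 3007 in the other 7 H3K4me3 libraries, and its H3K27me3 library had none at 4191 genes, against 1121 to 1557. Across genes the replicates had a Spearman's rho of 0.946 for H3K4me3 and 0.813 for H3K27me3 per kb. The replicates differed beyond counting noise (chi-square per degree of freedom 4.9 for H3K4me3 and 4.63 for H3K27me3).

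H3K4me3 alone was the state of 10352 genes, or 46.7% of those classed. Both marks were found at 781 genes (3.53%), H3K27me3 alone at 1044 (4.71%) and neither at 2146 (9.69%). The remaining 7830 genes (35.3%) lay in between. Of the 12543 genes with H3K4me3, 82.5% were without H3K27me3 and 6.23% carried it. Of the 6065 genes without H3K4me3, 17.2% carried H3K27me3. Without replicate 1 of H3K4me3 the same 4 classes held 10545, 945, 1130 and 2309 genes. Without replicate 1 of H3K27me3 they held 10692, 888, 1444 and 2617. When each replicate was classed alone, 4066 of the 22153 genes (18.4%) changed state between the replicates, 160 of them from one of the 4 classes to another and the rest into or out of in between. H3K27me3 alone was found at 1728 genes by replicate 1 and 1564 by replicate 2, and at the 1044 genes by both. In bulk chromatin a mark on fewer cells and less of a mark on every cell cannot be told apart, and 2 marks at a gene may sit on different cells or on different copies of it.

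**Figure D1:**
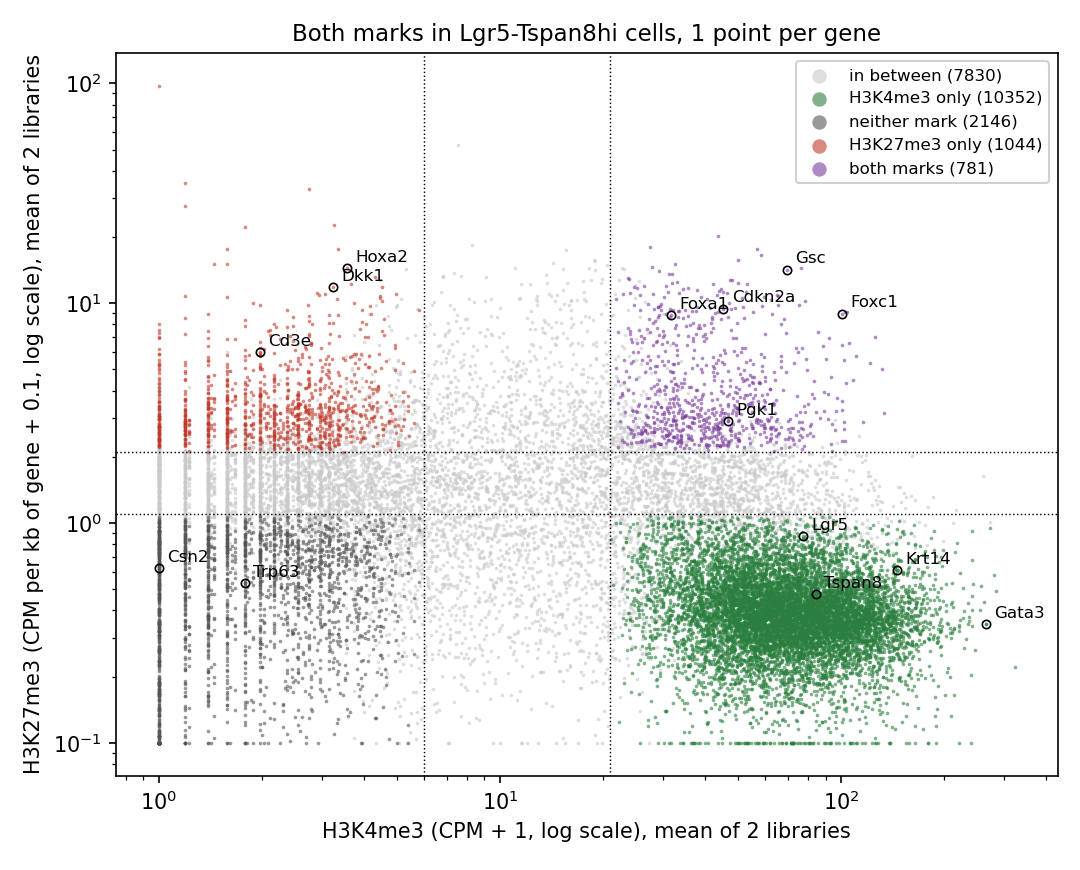
Each point is a gene, with the mean H3K4me3 of 2 libraries (CPM + 1) against the mean H3K27me3 (CPM per kb of gene + 0.1), both on log axes and coloured by class, and dotted lines at the class limits. Most genes with H3K4me3 lie in a dense cloud under 1 CPM per kb of H3K27me3, where the class H3K4me3 only has a median of 0.284, and a sparser group of 781 genes lies above 2.

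The promoters differed in sequence between these classes. To show what was compared, the 200 bases before the start of 8 genes are given, 5′ to 3′ on the gene's strand (RefSeq, GRCm38.p6), with each CG dinucleotide in capitals. The starts that the table gives for Gata3 and Krt14 lie inside the genes' full spans, and those of the other 6 genes at the end of the span. Gata3 and Krt14 carried H3K4me3 alone, and Foxc1 both marks. Pgk1 and Eif2s3x are X-linked, the first with both marks and the second with H3K4me3 alone. Dkk1 and Alb carried H3K27me3 alone, and Csn1s1 neither.
Gata3, chr2:9878601-9878800, minus strand: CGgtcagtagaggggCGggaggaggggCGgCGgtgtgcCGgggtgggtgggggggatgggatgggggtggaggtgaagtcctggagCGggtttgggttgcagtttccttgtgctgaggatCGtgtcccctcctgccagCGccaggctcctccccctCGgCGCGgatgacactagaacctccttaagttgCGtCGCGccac
Krt14, chr11:100206031-100206230, minus strand: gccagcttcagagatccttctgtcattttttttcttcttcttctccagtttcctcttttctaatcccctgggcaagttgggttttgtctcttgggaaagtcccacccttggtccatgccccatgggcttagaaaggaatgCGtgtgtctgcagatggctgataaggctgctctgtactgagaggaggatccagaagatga
Foxc1, chr13:31806446-31806645, plus strand: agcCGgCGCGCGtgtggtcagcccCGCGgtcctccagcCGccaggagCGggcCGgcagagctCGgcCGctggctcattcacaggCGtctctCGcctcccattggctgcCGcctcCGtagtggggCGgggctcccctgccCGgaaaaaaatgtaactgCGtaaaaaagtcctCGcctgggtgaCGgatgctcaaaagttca
Pgk1, chrX:106186900-106187099, plus strand: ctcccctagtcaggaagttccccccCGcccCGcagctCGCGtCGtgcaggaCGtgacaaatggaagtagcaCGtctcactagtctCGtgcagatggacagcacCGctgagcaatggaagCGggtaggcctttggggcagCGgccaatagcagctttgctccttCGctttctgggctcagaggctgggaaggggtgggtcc
Eif2s3x, chrX:94212652-94212851, minus strand: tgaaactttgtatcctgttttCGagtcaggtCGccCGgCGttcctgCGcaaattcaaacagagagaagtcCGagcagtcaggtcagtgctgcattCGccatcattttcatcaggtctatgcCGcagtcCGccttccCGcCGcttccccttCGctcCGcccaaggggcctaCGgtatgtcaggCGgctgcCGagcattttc
Dkk1, chr19:30549497-30549696, minus strand: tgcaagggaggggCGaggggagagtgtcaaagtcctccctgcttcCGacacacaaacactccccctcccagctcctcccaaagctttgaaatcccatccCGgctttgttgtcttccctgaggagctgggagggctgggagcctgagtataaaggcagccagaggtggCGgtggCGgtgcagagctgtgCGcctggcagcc
Alb, chr5:90460670-90460869, plus strand: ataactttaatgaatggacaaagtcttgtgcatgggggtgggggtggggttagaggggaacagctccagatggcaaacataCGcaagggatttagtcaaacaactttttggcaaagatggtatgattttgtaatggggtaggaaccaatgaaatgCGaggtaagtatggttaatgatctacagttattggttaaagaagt
Csn1s1, chr5:87666008-87666207, plus strand: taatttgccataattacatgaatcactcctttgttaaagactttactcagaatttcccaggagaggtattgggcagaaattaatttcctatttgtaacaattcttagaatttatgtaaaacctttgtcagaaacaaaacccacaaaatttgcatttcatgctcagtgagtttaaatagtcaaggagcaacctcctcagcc

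The stretch before Foxc1 held 20 CG dinucleotides, that before Eif2s3x 16, that before Gata3 14 and that before Pgk1 12. Dkk1 had 6, Alb 2, Krt14 1 and Csn1s1 0. Over all 17215 classed genes with a sequence for the 250 bases before and 50 after the start, the median ratio of observed to expected CpG was 0.80 at genes with H3K4me3 only and 0.72 at genes with both marks. It was 0.22 at genes with H3K27me3 only and 0.18 at genes with neither. A promoter was called CpG-rich at a GC content of at least 55% and a ratio of at least 0.65, which held for 40.3% of all promoters. The share was 64.9% with H3K4me3 only, 57.9% with both marks, 4.83% with H3K27me3 only and 4.13% with neither. Read the other way, 78.2% of the 6941 CpG-rich promoters were in the class H3K4me3 only, 4.88% had both marks and 0.562% had H3K27me3 only. For 39.6% of the 17215 genes the window lay at a start other than the end of the span, from 24.0% with H3K27me3 only to 46.4% with H3K4me3 only. Over the other 10398 genes, a choice made after the values were seen, the CpG-rich shares by class were 63.6%, 59.4%, 3.91% and 2.73%.

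**Figure D2:**
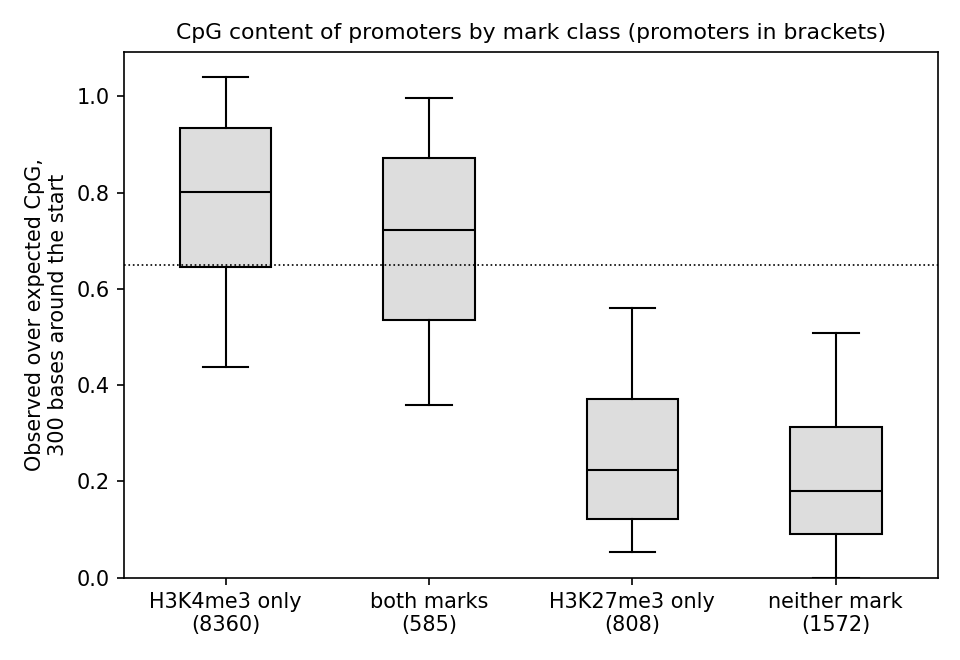
The ratio of observed to expected CpG in 300 bases around the start is shown for each class, with boxes from the 25th to the 75th percentile, a line at the median, whiskers at the 10th and 90th percentiles and a dotted line at 0.65. Medians were 0.80 and 0.72 in the classes with H3K4me3 and 0.22 and 0.18 in those without it.

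Short motifs were counted on both strands of the same windows. TATAAA, the core of the TATA box, occurred in 11.1% of all promoters. It was present in 5.67% with H3K4me3 only, 8.21% with both marks, 18.9% with H3K27me3 only and 21.4% with neither. In the stretch printed for Dkk1 it begins 54 bases before the start. GGGCGG, the core of the GC box, which itself contains a CG, occurred in 48.8% of all promoters and in 69.4%, 65.8%, 16.0% and 11.3% of the 4 classes in the same order. CCAAT differed little, with 38.7% of all promoters and 38.5%, 36.6%, 40.1% and 42.1% by class. TATAAA holds no G or C, and GGGCGG no A or T. Over the 4 classes the median GC content of these windows ran from 46.3% with neither mark to 62.7% with both marks. Whether base composition alone gives the differences in TATAAA and GGGCGG was not tested. A match of letters is a description of sequence and not a binding site.

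Among genes with H3K4me3 only, the median was 68.2 CPM of H3K4me3 and 0.284 CPM per kb of H3K27me3. Irx2, an Iroquois homeobox factor, had 288 and 272 CPM of H3K4me3 with 0.582 and 0.374 CPM per kb of H3K27me3 in replicates 1 and 2. Gata3, a zinc-finger factor best known as a regulator of luminal cells, had 261 and 269 CPM with 0.221 and 0.272 CPM per kb. Nfib, a nuclear factor I protein, had 270 and 259 CPM. Dusp6, a phosphatase that limits ERK signalling, had 265 and 257 CPM. The others were Fosl2 (an AP-1 subunit), Lmx1b (a LIM homeobox factor), Cbx3 (a heterochromatin protein), Hivep2 (a zinc-finger factor), Actg1 (gamma-actin) and the non-coding RNA Crnde, all with a mean of more than 200 CPM. The starts of Gata3, Crnde, Lmx1b, Cbx3 and Actg1 lie within 2 kb of another gene's start, so their reads may be shared.

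The sorting genes were in this class as well. Tspan8 (chromosome 10, 115816817 to 115849893, plus strand) had 88.3 and 78.2 CPM of H3K4me3 and 0.309 and 0.441 CPM per kb of H3K27me3. Lgr5 (chromosome 10, 115450314 to 115587780, minus strand), the gene these cells were sorted to lack, had 72.7 and 80.2 CPM of H3K4me3 and 0.821 and 0.722 CPM per kb of H3K27me3. The protein by which cells were sorted and the marks at its gene are different measurements.

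Basal and myoepithelial genes were almost all in the state H3K4me3 only. Of 22 listed genes 19 had this state, none carried H3K27me3, and the list's median was 85.8 CPM of H3K4me3 and 0.37 CPM per kb of H3K27me3, against 35.6 and 0.515 over all classed genes. Krt5, the partner keratin of Krt14, had 156 and 153 CPM of H3K4me3. Krt14 had 142 and 147 CPM. Acta2, the smooth-muscle actin of the contractile apparatus, had 114 and 128 CPM with no H3K27me3 read in replicate 1 and 0.29 CPM per kb in replicate 2. Oxtr, the oxytocin receptor that triggers milk ejection, had 133 and 170 CPM, and Snai2, a transcription factor of basal cells, had 163 and 138 CPM. All 5 genes had at least 114 CPM in each library, and H3K27me3 under 1 CPM per kb as their class requires.

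The basal list had 3 exceptions. Trp63, the p53-family factor that basal cells require, had 0 and 1.56 CPM of H3K4me3 and 0.442 and 0.422 CPM per kb of H3K27me3, which put it among the genes with neither mark. Mylk, the myosin light chain kinase, had 9.82 and 7.43 CPM. Krt17, a basal keratin, missed the class by its H3K27me3 of 1.10 CPM per kb in replicate 1, with 0.494 in replicate 2. Trp63 and Mylk are known to use more than 1 promoter, the basal form of Trp63 starting inside the gene. Whether the counted region holds the promoter in use was not tested, since the region is not given in the sources used here. Numb, Runx2, Mef2c, Ash2l and Dpy30 were likewise under 5 CPM with little H3K27me3, so a gene with neither mark is one with few reads of both in the counted region.

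**Figure D3:**
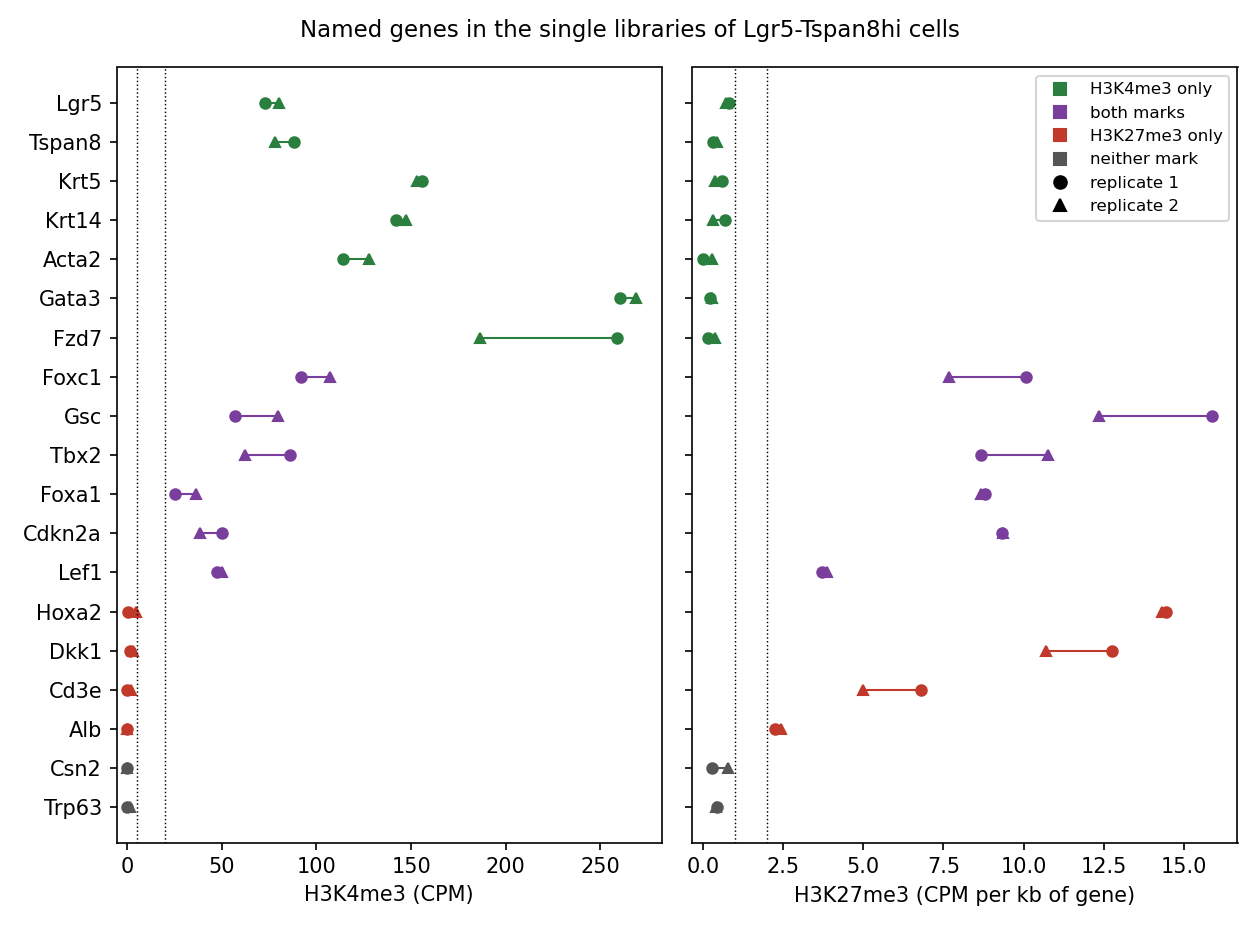
Values of named genes in the single libraries are shown, with H3K4me3 in CPM on the left and H3K27me3 in CPM per kb of gene on the right. Circles are replicate 1, triangles replicate 2, colours the classes and dotted lines the class limits. The 6 genes with both marks, from Foxc1 to Lef1, have between 24.99 and 107 CPM of H3K4me3 and between 3.73 and 15.9 CPM per kb of H3K27me3.

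Genes of general cell function had the same state as the basal genes. Of 31 proteasome genes 30 had H3K4me3 only, as did 71 of 82 ribosomal protein genes and 14 of 15 proliferation genes. Median H3K4me3 was 61.9, 87.5 and 35.5 CPM in these lists. Mki67, a marker of dividing cells, had 70.5 and 52.0 CPM and Bub1, a mitotic checkpoint kinase, 20.5 and 23.5 CPM. The writers and readers of both marks were themselves mostly H3K4me3 only, with 30 of 35 Polycomb and trithorax genes in this class. Ezh2, the H3K27 methyltransferase, had 95.04 and 102 CPM of H3K4me3, and Kmt2d, an H3K4 methyltransferase, had 161 and 157 CPM. Bmi1, a subunit of Polycomb repressive complex 1, was an exception, with 82.5 and 92.3 CPM of H3K4me3 and 7.05 and 5.47 CPM per kb of H3K27me3. Rbbp7, which is X-linked, was the other member with both marks.

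Genes of signalling pathways were found in several states. Of 44 Wnt pathway genes 28 (63.6%) had H3K4me3 only, against 46.7% of all classed genes. The 28 became 14 when H3K27me3 was set against genes of like length. The 28 held ligands, receptors and intracellular parts. Fzd7, a Frizzled receptor, had 259 and 187 CPM of H3K4me3, the co-receptor gene Lrp6 had 166 and 121 CPM, and the feedback inhibitor gene Axin2 had 118 and 137 CPM. The ligand genes Wnt5a, Wnt5b, Wnt6, Wnt10a and Wnt11 were in this state too, Wnt5a with 141 and 170 CPM and Wnt11 with 111 and 119 CPM. Both marks were found at the ligand genes Wnt1, Wnt3a, Wnt7a and Wnt7b, at the receptor gene Fzd10 and at Lef1, a transcription factor of the pathway. Wnt1 had 32.6 and 25.8 CPM of H3K4me3 and 9.91 and 11.3 CPM per kb of H3K27me3. Lef1 had 47.3 and 50.06 CPM and 3.73 and 3.88 CPM per kb. Dkk1 (chromosome 19, 30545876 to 30549496, minus strand), a secreted Wnt inhibitor, was the pathway gene with H3K27me3 only, at 1.34 and 3.13 CPM of H3K4me3 and 12.8 and 10.7 CPM per kb of H3K27me3.

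In the hedgehog pathway the receptor genes Ptch1 and Smo and the regulators Gli3 and Sufu had H3K4me3 only, while the ligand genes Shh and Ihh and the target gene Gli1 had both marks. Shh had 26.3 and 29.7 CPM of H3K4me3 and 8.01 and 9.11 CPM per kb of H3K27me3. In the Notch pathway 10 of 18 genes (55.6%) had H3K4me3 only, against 46.7% of all classed genes. Among the 10 were the receptor gene Notch1, the ligand genes Jag1, Jag2 and Dll1 and the target gene Hes1. The ligand gene Dll4 and the target genes Hes5 and Hey2 had both marks. Of 22 TGF-beta and BMP genes 14 (63.6%) had H3K4me3 only. Bmp2, a ligand, and Nog, a secreted BMP inhibitor, had both marks, Nog with 46.8 and 53.2 CPM of H3K4me3 and 5.32 and 6.52 CPM per kb of H3K27me3.

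Of 10 genes of cyclin-dependent kinase inhibitors and pocket proteins 6 had H3K4me3 only and 3 both marks. Over all classed genes the shares were 46.7% and 3.53%. Cdkn1b, Cdkn2c, Cdkn2d and the pocket protein genes Rb1, Rbl1 and Rbl2 had H3K4me3 only. Cdkn2a, which encodes p16 and ARF and is a well-known Polycomb target, had 49.97 and 38.3 CPM of H3K4me3 and 9.33 and 9.35 CPM per kb of H3K27me3. Its neighbour Cdkn2b had 31.7 and 20.7 CPM and 9.90 and 9.64 CPM per kb, and Cdkn1c had 3.06 and 3.62 CPM per kb with 39.7 and 46.5 CPM of H3K4me3. Cdkn1a, which encodes p21, was in between, with 2.23 and 1.96 CPM of H3K4me3 and 1.17 and 0.57 CPM per kb of H3K27me3.

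Genes with both marks had a lower median of H3K4me3, at 38.7 CPM, than genes with H3K4me3 alone, and 3.27 CPM per kb of H3K27me3. The 10 highest in both marks were Pou3f1, Pou3f3, Tbx2, Foxc1, Foxf1, Gsc, Msx1, Sp5, Adra2a and Ankrd63. The first 8 are transcription factors of embryonic patterning, and Adra2a is an adrenergic receptor. Gsc, the homeobox gene goosecoid, had 57.1 and 79.8 CPM of H3K4me3 and 15.9 and 12.4 CPM per kb of H3K27me3. Foxc1 (chromosome 13, 31806646 to 31810635, plus strand) had 91.9 and 107 CPM and 10.1 and 7.68 CPM per kb. Tbx2, a T-box repressor, had 86.1 and 62.2 CPM and 8.69 and 10.8 CPM per kb, and its start lies within 2 kb of another gene's start. Each of the 10 had more than 50 CPM of H3K4me3 and more than 7 CPM per kb of H3K27me3 in both libraries.

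Regulators of other lineages carried H3K27me3 whether or not H3K4me3 was present. Of 73 developmental transcription factor genes 70 passed the H3K27me3 limit, against 2753 of all 22153 classed genes. Of these 73, 23 had both marks, 9 had H3K27me3 only, and the other 38 that passed had H3K4me3 between its limits. The 23 became 42 with an H3K4me3 limit of 10 CPM and 7 with 40 CPM, and without replicate 2 of H3K4me3 16 genes had H3K27me3 only. Neurog2, a neuronal bHLH factor, had 60.7 and 62.2 CPM of H3K4me3 and 10.96 and 9.57 CPM per kb of H3K27me3. Nkx6-1, a homeobox factor of endocrine pancreas and spinal cord, had 42.4 and 44.6 CPM and 11.2 and 11.7 CPM per kb. The 2 members with H3K4me3 only were Irx1, with 182 and 162 CPM, and Irx3, with 206 and 177 CPM.

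Some families were picked by symbol after their values were seen, and several of their genes are also among the 73 factors above. Of 46 Fox genes 15 had both marks and 11 had H3K4me3 only. Of 9 Pax genes and 8 Lhx genes, none had H3K4me3 only, and all passed the H3K27me3 limit. Of the others, 4 of 6 Irx genes and 11 of 17 Klf genes had H3K4me3 only, and so did 265 of 388 Zfp genes and 70 of 73 genes of mitochondrial ribosomal proteins. Over all classed genes 46.7% had H3K4me3 only and 3.53% had both marks.

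The Hox genes, which set position along the body axis, showed more H3K27me3 and less H3K4me3 than all classed genes. Their median H3K27me3 was 8.63 CPM per kb, against 0.515 over all classed genes and 7.98 in the 73 factors above. Median H3K4me3 was 11.3 CPM, against 35.6 and 18.9 CPM. Of 39 Hox genes 34 passed the H3K27me3 limit, 8 had H3K27me3 only, 4 had both marks and 26 were in between. By cluster, median H3K27me3 was 10.4 CPM per kb in Hoxa, 5.12 in Hoxb, 10.1 in Hoxc and 8.11 in Hoxd, and median H3K4me3 was 8.43, 18.03, 9.01 and 13.3 CPM. Hoxa2 (chromosome 6, 52162417 to 52164831, minus strand) had 14.4 and 14.3 CPM per kb of H3K27me3 and 0.446 and 4.69 CPM of H3K4me3. Hoxb2 went the other way, with 102 and 101 CPM of H3K4me3 and 0 and 0.40 CPM per kb of H3K27me3, and Hoxb4 had 107 and 95.0 CPM with 1.12 and 0.89 CPM per kb. Genes within a cluster share neighbours and overlap one another, so they are not independent.

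Genes with H3K27me3 only had a median of 3.05 CPM per kb of H3K27me3 and 1.26 CPM of H3K4me3, which is near the level that a count of 0 allows. Besides 5 Hox-cluster genes or transcripts (Hoxa2, Hoxa11, Hoxc10, Hoxc11 and the non-coding RNA Hotair), the highest included the homeobox genes Nkx2-3 and Evx1, the T-box gene Tbr1 and Dkk1. Only 104 of the 1044 genes reached 5 CPM per kb in both libraries, a limit chosen after the values were seen, against 183 of the 781 genes with both marks. The highest single value, 97.3 CPM per kb, was at the olfactory receptor gene Olfr56, a member of a large family of similar sequences where reads cannot always be assigned to 1 gene.

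The class, 4.71% of all classed genes, also held some genes of differentiated cells outside the mammary epithelium. It held none of the listed endothelial, fibroblast, pericyte or Schwann and neural crest genes, and 3 of 46 neuronal channel and synaptic receptor genes. Of 26 liver and plasma protein genes 7 had H3K27me3 only and 16 were in between. Alb, the serum albumin gene, had no H3K4me3 read in either library and 2.24 and 2.42 CPM per kb of H3K27me3, and Ahsg, encoding fetuin-A, had 5.91 and 6.34 CPM per kb. Of 15 immune genes 4 had H3K27me3 only and 8 were in between. Cd3e, a subunit of the T-cell receptor complex, had 6.79 and 5.00 CPM per kb and 0 and 1.96 CPM of H3K4me3, and Cd4 and Cd8a, the co-receptors of T cells, had the same state. Of 28 germline genes 6 had H3K27me3 only and 16 were in between. Stk31, with H3K27me3 only, had 2.38 and 2.29 CPM per kb and no H3K4me3 read. At the limit itself Krt76 and Mov10l1 lay just inside, at 2.0003 and 2.0011 CPM per kb in their lower library, and Hsd17b1 and Tff2 just outside, at 1.9993. For H3K4me3 Lss and Kcns1 lay just inside 20 CPM, at 20.1, and Trim5 and Rasl10b just outside, at 19.9.

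**Figure D4:**
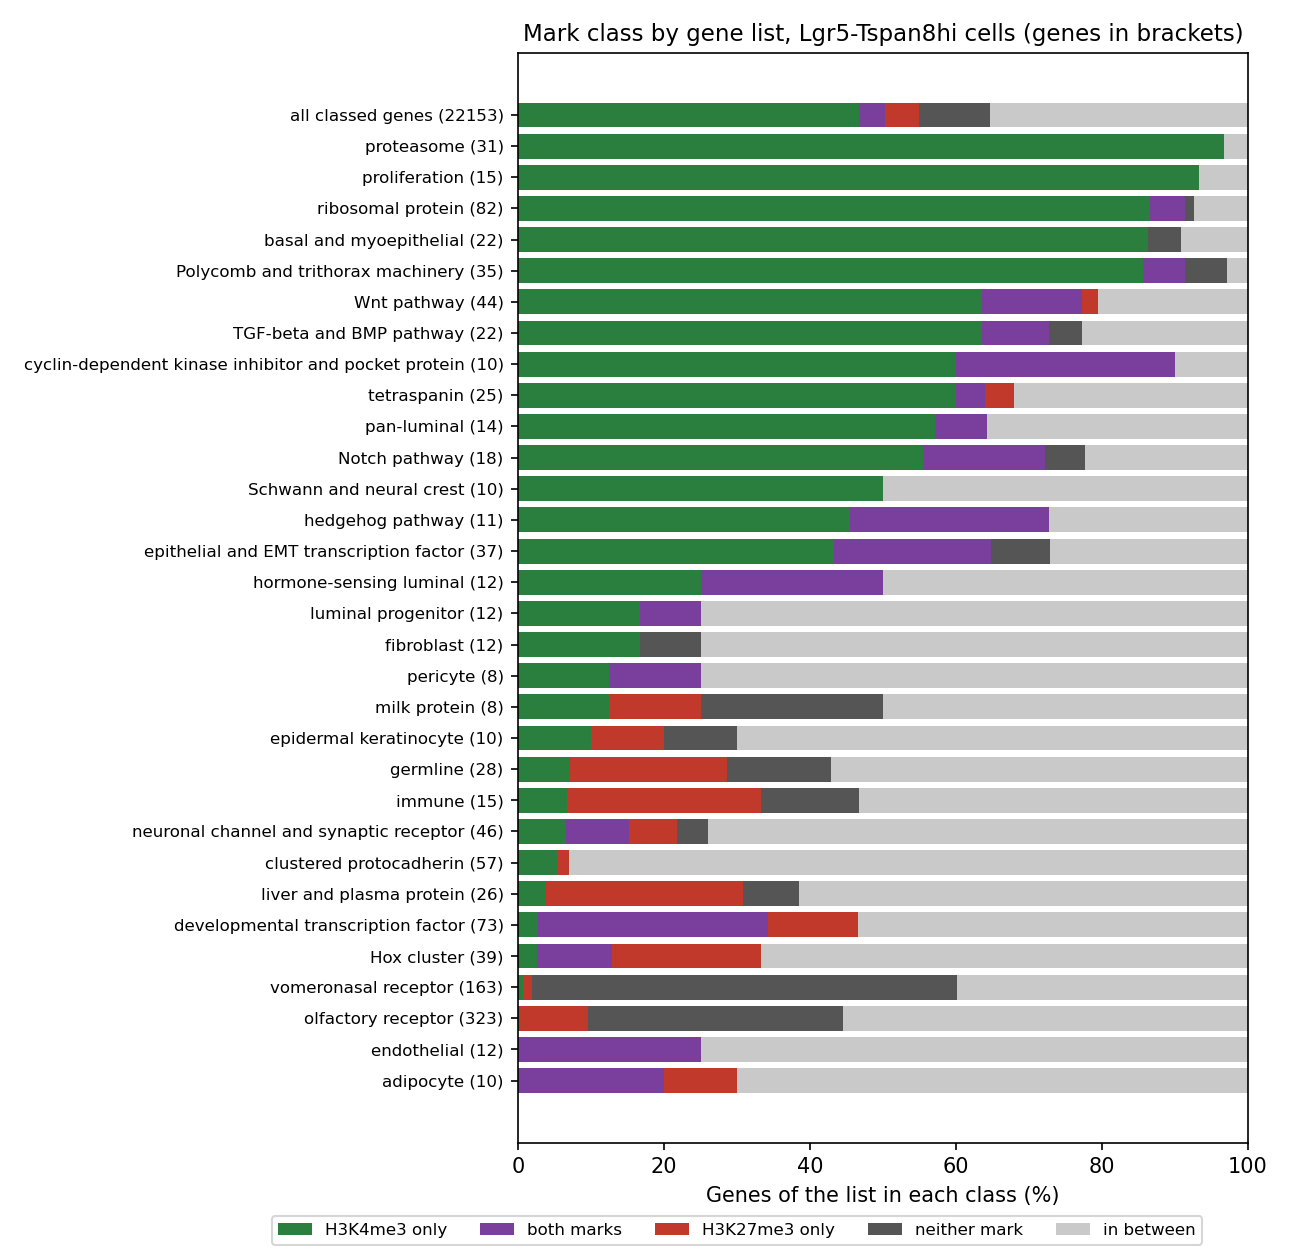
The share of each list's genes in each class is shown in percent, with the number of genes in brackets and all classed genes at the top. Proteasome, proliferation, ribosomal protein and basal genes are mostly H3K4me3 only. The share with both marks (purple) is largest in the developmental factors, at 31.5%, and is 10.3% in the Hox genes. The share with H3K27me3 only (red) is largest in the liver and plasma protein and immune lists, at 26.9% and 26.7%. It is 20.5% in the Hox genes and 12.3% in the developmental factors. The light grey share is genes in between, 35.3% over all genes.

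Luminal genes, which the neighbouring epithelial layer uses, were found in several states, and many were in between. In between were 9 of 12 luminal progenitor, 6 of 12 hormone-sensing, 5 of 14 pan-luminal and 4 of 8 milk protein genes. Over all classed genes this share was 35.3%. Of the luminal progenitor genes Cd14 and Mfge8 had H3K4me3 only, and Aldh1a3 had both marks. Of 14 pan-luminal genes 8 (57.1%) had H3K4me3 only, against 46.7% of all classed genes. Krt8 and Krt18, the luminal keratin pair, had 99.5 and 104 CPM and 81.7 and 61.4 CPM. Cldn7, a tight-junction claudin, had both marks, with 43.3 and 34.8 CPM and 7.19 and 6.43 CPM per kb. Of 12 hormone-sensing luminal genes Esr1 and Pgr, the oestrogen and progesterone receptor genes, and Gata3 had H3K4me3 only. Esr1 lay near the H3K27me3 limit of 1 CPM per kb, at 0.81 and 0.915, while Pgr had 0.516 and 0.433. Foxa1, the cofactor that opens chromatin for these receptors, had both marks at 24.99 and 36.4 CPM and 8.80 and 8.68 CPM per kb. Cited1, an X-linked co-regulator, had both marks too. Of 8 milk protein genes Xdh, also an enzyme of purine breakdown, was the one with H3K4me3 only. Csn1s1 and Csn2, the caseins, had no H3K4me3 read in either library and neither mark, while Glycam1 had H3K27me3 only, at 4.57 and 3.76 CPM per kb.

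Lists of cells that a basal sort could also hold were read for H3K4me3. H3K4me3 passed its limit at 2 of 15 immune genes (median 1.26 CPM), 3 of 12 endothelial genes (7.48 CPM) and 6 of 12 fibroblast genes (23.8 CPM). It also passed at 3 of 8 pericyte genes (median 14.9 CPM) and 3 of 10 adipocyte genes (10.1 CPM). Over all classed genes it passed at 12543 of 22153 (median 35.6 CPM), and in the basal list at 20 of 22 (85.8 CPM). The lists differ in size, so the sums that follow do not compare lists gene by gene. The summed H3K4me3 in replicates 1 and 2 was 99.5 and 105 CPM for the immune, 171 and 162 CPM for the endothelial, 257 and 332 CPM for the fibroblast, 198 and 219 CPM for the pericyte and 282 and 321 CPM for the adipocyte list, beside 2043 and 1943 CPM over the 22 basal genes. The endothelial genes Kdr, Cldn5 and Sox18 had both marks, and Erg, a defining endothelial factor, had 0.446 and 0.391 CPM of H3K4me3. Ptprc, the pan-leukocyte antigen, had 1.34 and 1.17 CPM, and Spi1, the myeloid factor, 0 and 0.782. Postn, encoding the matrix protein periostin, was highest among the fibroblast genes read here, with 67.4 and 69.2 CPM. Mcam, an adhesion molecule of the pericyte list, had 94.1 and 88.8 CPM, and Cebpa, a factor of the adipocyte list, 165 and 185 CPM. Adipoq, the defining adipocyte hormone, had 0 and 3.52 CPM. What share of the H3K4me3 at these lists came from other cells was not tested. Of 10 genes of Schwann and neural crest cells 5 had H3K4me3 only, beside 46.7% of all classed genes. Among the 5 was Sox10, which mammary epithelial cells also use, at 159 and 154 CPM.

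The X chromosome stood apart from all autosomes. Of 993 X-linked genes 18 had H3K4me3 only, 209 had both marks, 159 had H3K27me3 only and 156 neither. On autosomes 10334 of 21091 genes had H3K4me3 only, and 572 (2.71%) had both marks, against 21.0% on the X. Among X-linked genes with H3K4me3, which were 321, median H3K27me3 was 2.39 CPM per kb in replicate 1 and 2.52 in replicate 2. Among the 12222 autosomal genes with H3K4me3 it was 0.317 and 0.323, with single autosomes between 0.30 and 0.367 in the mean of the replicates. Median H3K4me3 of the same genes was 38.1 CPM on the X and 64.4 CPM on autosomes. The 2 replicates gave the same order, and so did the other subpopulations, with X medians of 2.39 CPM per kb for Lgr5+Tspan8hi, 2.77 for Lgr5+Tspan8- and 2.97 for Lgr5-Tspan8- libraries. The counts do not tell the X copies apart, so 2 marks at an X-linked gene may lie on different copies.

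**Figure D5:**
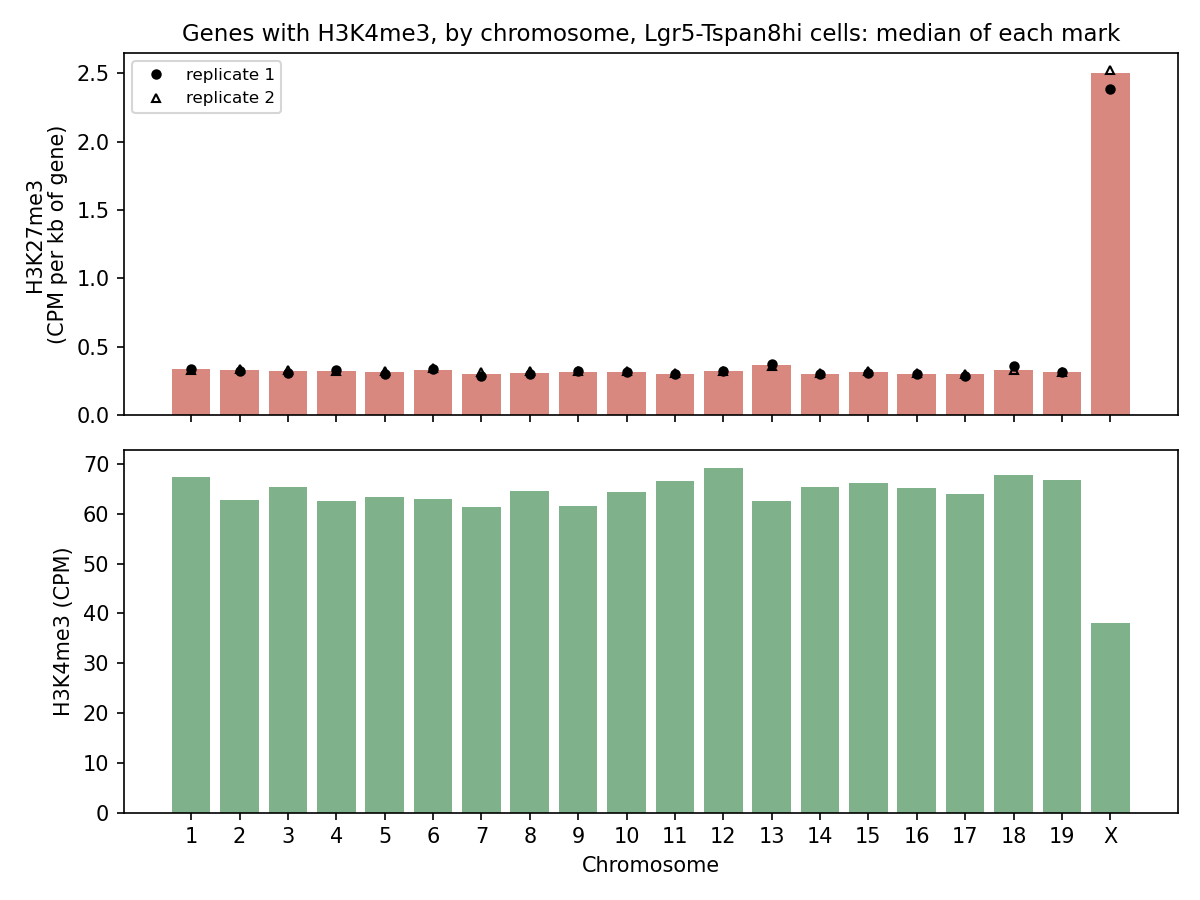
For genes with H3K4me3, bars give the median H3K27me3 (top, CPM per kb of gene) and H3K4me3 (bottom, CPM) of each chromosome over both libraries, and symbols give the H3K27me3 medians of single replicates. The X, at 2.50 CPM per kb and 38.1 CPM, lies above every autosome for H3K27me3 and below every autosome for H3K4me3.

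Genes with both marks differed between the X and the autosomes. The 572 autosomal genes had a median H3K27me3 of 3.92 CPM per kb, 180 of them reached 5 CPM per kb in both libraries, and their median span was 11.8 kb. The 209 X-linked genes had a median of 2.76 CPM per kb in a narrow range (10th to 90th percentile 2.28 to 3.67), 3 reached 5 CPM per kb, and the median span was 38.9 kb. Median H3K4me3 was alike, at 39.2 and 37.3 CPM, and 59.3% and 54.8% of their promoters were CpG-rich. The X-linked set held genes that most cells use. Pgk1, a glycolytic enzyme, had 44.2 and 47.3 CPM of H3K4me3 and 2.83 and 2.79 CPM per kb of H3K27me3. Atrx, a chromatin remodeller, had 48.2 and 35.6 CPM and 2.80 and 2.95 CPM per kb. These X-linked genes and those that follow were chosen after their values were seen.

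The 18 X-linked genes with H3K4me3 only included genes known to escape X inactivation in mouse. How many of the 18 escape was not tested, and values are given for 5. Others in the class were Araf, Fgf13 and Pcdh11x. Rtl8a rested on 2 and 8 H3K27me3 reads, and Atg4a lay near the limit at 0.839 and 0.956 CPM per kb. Ddx3x, an RNA helicase, had 167 and 162 CPM of H3K4me3 and 0.646 and 0.518 CPM per kb of H3K27me3. Kdm6a, an H3K27 demethylase, had 137 CPM in both replicates and 0.277 and 0.223 CPM per kb. Kdm5c, an H3K4 demethylase, had 118 and 92.7 CPM and 0.701 and 0.612 CPM per kb. Eif2s3x, a translation factor, had 51.3 and 70.4 CPM and 0.839 and 0.61 CPM per kb. Xist, the non-coding RNA that coats the inactive X, had 61.1 and 74.3 CPM and 0.414 and 0.549 CPM per kb, and it overlaps an antisense gene whose reads cannot be told apart from its own. Their class requires H3K27me3 under 1 CPM per kb in both libraries, so the low values of these 5 follow from that choice. Over all X-linked genes the median was 2.27 CPM per kb. The promoter stretches printed above, of Pgk1 with both marks and Eif2s3x with H3K4me3 only, held 12 and 16 CG dinucleotides.

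The classes differed in how far they were shared with the other basal subpopulations. Classed in the same way, 9772 of the 10352 genes with H3K4me3 only (94.4%) had that state in all 4 subpopulations. The same held for 519 of 781 genes with both marks (66.5%), 468 of 1044 with H3K27me3 only (44.8%) and 1252 of 2146 with neither (58.3%). Losses were nearly all moves to in between. The 2 replicates of Lgr5-Tspan8hi, each classed alone, also shared only part of their genes. Of 1728 and 1564 genes with H3K27me3 only, 1044 were shared, as were 781 of 1001 and 1067 with both marks. With neither mark 2146 of 3089 and 2816 were shared. Each other subpopulation shared 65.3% to 69.4% of the 1044 genes with H3K27me3 only. Whether sharing between subpopulations falls below that between replicates was not tested. Against Lgr5-Tspan8- cells 3 genes went from H3K4me3 only to both marks, and these were Enah, an actin elongation factor, Id1, a BMP target, and Hcst, a signalling adaptor. Enah H3K27me3 was 2.04 and 2.35 CPM per kb in the Lgr5-Tspan8- libraries against 0.846 and 0.731 CPM per kb here, with 104 and 112 CPM of H3K4me3 here and 105 and 98.7 CPM there. At Id1, a gene of little more than 1 kb, 1 and 7 H3K27me3 reads stood behind the Lgr5-Tspan8hi values. Hcst had 2.04 and 2.28 CPM per kb in the Lgr5-Tspan8- libraries and 0 and 0.815 here. Enah and Hcst thus lay little above the limit of 2 CPM per kb there. Whether H3K27me3 at these 3 genes differs between the 2 subpopulations was not tested.

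Each mark was then tested between Lgr5-Tspan8hi libraries and the mean of the other 3 subpopulations. For H3K4me3 1 of 19009 genes passed, which is 0.00526% (edgeR quasi-likelihood test, Benjamini-Hochberg adjusted p under 0.05), and 1264 had an unadjusted p under 0.05. DESeq2 called 1 gene and limma-voom 2. The gene was Tspan8, which carries H3K4me3 only and encodes the protein used for sorting. Lgr5-Tspan8hi libraries had 88.3 and 78.2 CPM of H3K4me3 there. The libraries of Lgr5+Tspan8- cells had 30.4 and 23.1 CPM, and those of Lgr5-Tspan8- cells 25.1 and 21.3 CPM. Cells sorted as Lgr5+Tspan8hi had 68.8 and 82.8 CPM. Both Tspan8hi subpopulations were high, and the ranges of Lgr5-Tspan8hi and of the other 6 libraries overlapped. The log2 fold change was 1.21 ± 0.19 (SE; edgeR adjusted p = 7.32e-05), and without replicate 1 of Lgr5-Tspan8hi it was 1.11 with an adjusted p of 0.0755, so that no gene passed.

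The next smallest p-values for H3K4me3 did not pass in edgeR. Cpm, which encodes carboxypeptidase M, had 95.0 and 75.9 CPM against 41.5 to 58.4 in the other 6 libraries (log2 fold change 0.77 ± 0.18, edgeR adjusted p = 0.318). It was the other gene called by limma-voom (adjusted p = 0.0285), and it passed in edgeR without replicate 2 of Lgr5-Tspan8hi (adjusted p = 0.0143). Ntn1, the guidance molecule netrin-1, had 56.7 and 76.7 CPM against 93.3 to 122 (-0.67 ± 0.16, edgeR adjusted p = 0.346). Zfp69, a zinc-finger gene, had 27.2 and 32.1 CPM against 42.4 to 64.8 (-0.91 ± 0.22, edgeR adjusted p = 0.346). In all 3 the libraries did not overlap, but in edgeR none passed after adjustment over all genes. Lgr5 H3K4me3 was 76.5 ± 5.27 CPM (SD, n = 2) and 78.6 ± 19.5 CPM (SD, n = 6) in the other libraries (edgeR adjusted p = 0.993).

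For H3K27me3 no gene of 22099 passed (0%), although 1639 had an unadjusted p under 0.05, and DESeq2 and limma-voom also called 0. The 4 smallest p-values were at Top1mt, Adamts6, Impg1 and Abcf1. Adamts6, a metalloprotease, had 123 and 152 CPM of H3K27me3 over its gene against 147 to 283 in the other 6 libraries, which overlap (-0.60 ± 0.14, edgeR adjusted p = 0.619). Top1mt, a mitochondrial topoisomerase, had 18.6 and 14.3 CPM against 3.69 to 8.24 (1.29 ± 0.29, edgeR adjusted p = 0.619). Leaving out replicate 2 of Lgr5-Tspan8hi, which leaves replicate 1 alone and assumes that it varies like the other groups, gave 573 calls for H3K27me3 (226 higher, 347 lower) and 189 for H3K4me3 (61 higher, 128 lower). Leaving out replicate 1 gave 0 for both. By class, the median log2 fold change of H3K27me3 was 0.01 in genes with H3K27me3 only and -0.08 in genes with both marks, beside 0.01 over all genes tested. For H3K4me3 it was 0.02 in genes with H3K4me3 only and 0.03 in genes with both marks, beside 0.00 over all. It was -0.75 in the 252 tested of 1044 genes with H3K27me3 only and -0.73 in the 384 tested of 2146 genes with neither mark. Both classes were chosen for low H3K4me3 in the Lgr5-Tspan8hi libraries, and a gene could pass the filter on low counts through the other libraries. The classes were drawn with the same libraries, so these medians are a description.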

How the data were processed

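For each library the authors deposited a raw read count per Entrez gene, without normalization (featureCounts, mm10, per the submitters' processing notes). Not given in the sources used here are the aligner, its version and the counted region. Columns were scaled to CPM here, with H3K27me3 also divided by gene span. Names, spans and promoters came from RefSeq GRCm38.p6, which is the assembly of mm10 and matched 25189 of 27080 identifiers; 17215 classed genes had a promoter sequence, and windows over an annotated exon were not printed. Each mark's 8 libraries were fitted with edgeR 4.0.16 (filterByExpr, TMM, robust quasi-likelihood test, Benjamini-Hochberg) in R 4.3.3, as Lgr5-Tspan8hi minus the mean of the other 3 subpopulations; DESeq2 1.42.0 and limma 3.58.1 were alternatives. The biological coefficient of variation was 16.0% for H3K4me3 and 16.8% for H3K27me3. Tested on simulated data, the fit recovered 69.0% of changes of 1 log2 unit for H3K4me3 and 47.9% for H3K27me3, with 3 and 14 false calls. The simulation gave all genes 1 common spread and held no deviating library like replicate 1. These rates therefore do not measure how many changes the fit would find in the real libraries.

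The members, the 31 gene lists, the class limits and the naming rule were chosen with earlier results of these data known. Named were Lgr5 and Tspan8, the 10 highest named genes per class (without predicted genes, clones, small RNAs, receptor families of smell and genes within 2 kb of one already taken), list members, the genes nearest each limit, and the called genes or the 4 smallest p of each contrast. Totals of 2241266 to 6300093 counts set the precision, with counting error larger at weak genes. Alternatives were other class limits and scalings, each library left out, and other tests.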

Additional observations from a re-analysis of the deposited data

How the results depend on the processing

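The class H3K4me3 only stayed within 1.5 times its size under all 12 alternatives, from 7691 to 10798 genes. Genes with both marks became 279 with an H3K4me3 limit of 40 CPM, 387 with an H3K27me3 limit of 3 CPM per kb and 1609 when H3K27me3 was set against genes of like length. Genes with H3K27me3 only became 1735 with a limit of 1.5 CPM per kb, 400 with 3 CPM per kb and 2650 against genes of like length, where genes with neither mark became 1109. With 1 library left out, the same class counts ran from 863 to 945 for both marks, 1130 to 1460 for H3K27me3 only and 2309 to 2697 for neither, higher because only 1 library of that mark had to pass. X-linked genes with both marks ran from 47 to 282 and autosomal ones from 211 to 1327. Basal genes with H3K4me3 only ran from 14 to 20 of 22.

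In the comparison with the other subpopulations, H3K4me3 calls became 2 by limma-voom and ran from 0 to 189 with 1 library left out, being 4 without replicate 1 of Lgr5+Tspan8-. H3K27me3 calls were 573 without replicate 2 of Lgr5-Tspan8hi and 0 under all 15 other alternatives. The small log2 fold change of Lgr5 H3K4me3, -0.02, turned positive in 3 leave-out fits, with a range of -0.12 to 0.10 over all 16 alternatives. With the replicate number as a block, the replicate block fit called 1 gene for H3K4me3 and 0 for H3K27me3. Same-numbered libraries did not deviate together, with correlations from -0.03 to 0.14 for H3K4me3 and from -0.01 to 0.12 for H3K27me3 over 6 pairs, so the numbers were not taken to pair libraries. Depth limits H3K4me3 under about 1.34 CPM and H3K27me3 at short genes.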

Other observations

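Large tandem families differed in their states. Of 163 vomeronasal receptor genes 95 had neither mark and 2 had H3K27me3 only. Of 323 classed olfactory receptor genes 113 had neither mark, 30 had H3K27me3 only and 179 were in between. Reads of such similar genes cannot always be assigned to 1 gene. The clustered protocadherins, cell-surface proteins that give neurons an identity, were in between for 53 of 57 genes. Of 49 keratin genes 8 had H3K4me3 only, which besides Krt5 and Krt14 were Krt8, Krt10, Krt15, Krt18, Krt19 and Krt23, while Krt1, Krt12, Krt26, Krt27, Krt76 and Krt86 had H3K27me3 only.

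Of 46 neuronal channel and synaptic receptor genes 3 had H3K4me3 only, 4 both marks and 3 H3K27me3 only. Grik3, a kainate receptor subunit, had 148 and 163 CPM of H3K4me3 with 0.53 and 0.46 CPM per kb of H3K27me3, while Kcna1, a potassium channel, had 39.7 and 49.3 CPM with 4.71 and 5.66 CPM per kb. Of 25 tetraspanin genes 15 had H3K4me3 only, Cd9 the highest of those named here at 163 and 160 CPM. Tspan7, which is X-linked, had both marks, and Tspan11 had H3K27me3 only. Of 98 Kcn potassium channel genes 15 had both marks and 8 H3K27me3 only, and of 41 Defb defensin genes 10 had H3K27me3 only and none H3K4me3. The families named by symbol were chosen after their values were seen. Over all classed genes 46.7% had H3K4me3 only, 3.53% both marks, 4.71% H3K27me3 only and 9.69% neither.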
